A study of Homo sapiens with 21 samples.

Results

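The genes described here are 9 targets of the transcription factor NRF2 that act against oxidative stress: HMOX1, SQSTM1, OSGIN1, SLC7A11, GCLC, GCLM, TXNRD1, SRXN1 and NQO1. They were chosen by name as known NRF2 targets, with earlier results of these data known, and are 9 of the 58735 genes listed. All 9 have a mean of at least 0.5 FPKM (fragments per kilobase of gene length, scaled to the library's size) over the 21 libraries, a filter that 14686 genes pass and that defines the genes tested.

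RNA-seq was done on MDA-MB-453, a human breast cancer cell line of luminal type, in 21 libraries, 3 for each of 7 groups. The study asks how calcium and cadmium act on these cells and what part the estrogen-related receptor beta (ESRRB) has in it. The groups were control, 10 mM calcium, 10 µM cadmium, 5 µM GSK4716 (described as an agonist of that receptor), 10 µM diethylstilbestrol (DES, described as its antagonist), DES with calcium, and DES with cadmium. Treatments lasted 24 h, and where DES came with a metal it was added 3 h before the metal, so that the metal and the time with DES cannot be told apart there. GSK4716 and DES were dissolved in ethanol. Whether groups not given them had ethanol is not clear, so ethanol cannot be told apart from them in comparisons with those groups. Medium for calcium and GSK4716 held no serum and that for cadmium held 1% charcoal-stripped serum. A single control group is described, so that medium and treatment cannot be told apart. The medium of the control and DES-alone groups is not clear, so medium may also differ in comparisons that use DES alone. No label says that the replicates were separate cultures, and p-values measure only the spread between these samples, which may be technical.

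NRF2, encoded by NFE2L2, is bound in unstressed cells by KEAP1, which presents it to the ubiquitin ligase of CUL3 and RBX1 for destruction. Oxidants, electrophiles and heavy metals such as cadmium react with cysteines of KEAP1, and NRF2 then accumulates, pairs with a small MAF protein and binds antioxidant response elements near its target genes, while the repressor BACH1 competes for some of these elements, those of HMOX1 among them. In breast cancer cells this programme is known for its link to survival under oxidative stress and to drug resistance.

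Since members of the group moved together across libraries, their promoters were searched for the core of the antioxidant response element. Promoters of 7 of the 9 genes were matched by symbol in RefSeq sequences of GRCh38.p14, 10 promoters in all, and those of HMOX1 and SLC7A11 are not analysed here. The core, TGACNNNGC on either strand, was found in the 250 bases before the start in 3 of these 10 promoters, and in 10.9% of 35116 promoters of the same length. These 3 belong to GCLM, which encodes the modifier subunit of the enzyme that starts glutathione synthesis, and to TXNRD1, which encodes cytosolic thioredoxin reductase and has both of its listed promoters among them. They are printed 5′ to 3′ on the strand of the gene, with the core in capitals. The GCLM promoter is chr1:93909431-93909680 on the minus strand, with the core beginning 34 bases before the start. Those of TXNRD1 are chr12:104215529-104215778 and chr12:104286782-104287031 on the plus strand, with cores 99 and 102 bases before their starts.
GCLM promoter: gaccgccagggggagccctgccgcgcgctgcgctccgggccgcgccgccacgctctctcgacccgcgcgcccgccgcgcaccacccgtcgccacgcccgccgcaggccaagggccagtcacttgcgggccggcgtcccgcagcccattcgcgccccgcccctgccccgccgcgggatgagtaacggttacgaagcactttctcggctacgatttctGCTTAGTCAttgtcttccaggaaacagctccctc
TXNRD1 promoter, upstream start: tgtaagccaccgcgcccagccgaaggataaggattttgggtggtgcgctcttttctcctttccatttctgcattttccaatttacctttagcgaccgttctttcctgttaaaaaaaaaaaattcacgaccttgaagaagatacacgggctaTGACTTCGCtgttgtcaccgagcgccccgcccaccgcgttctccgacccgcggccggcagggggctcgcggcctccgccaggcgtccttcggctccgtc
TXNRD1 promoter, downstream start: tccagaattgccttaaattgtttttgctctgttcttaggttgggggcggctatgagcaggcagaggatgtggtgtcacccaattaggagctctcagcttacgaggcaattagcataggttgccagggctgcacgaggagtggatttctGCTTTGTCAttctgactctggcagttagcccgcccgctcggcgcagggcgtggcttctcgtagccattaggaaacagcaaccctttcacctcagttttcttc
The AP-1 motif TGANTCA, whose first letters are shared with the response element core so that the matches can overlap, was present in 1 of the 10 promoters, that of OSGIN1, against 6.57% of all promoters. A core of the metal response element, TGCACNC or TGCGCNC, was found in 6 of the 10, from GCLC, GCLM, OSGIN1, SQSTM1 and TXNRD1, against 24.8% of all promoters. A match describes these letters only. Elements outside these 250 bases were not searched for, so a promoter without a match is not shown to lack one.

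The label of the cell line was checked against marker genes. The luminal markers ERBB2, KRT8, KRT18, GATA3, FOXA1 and EPCAM were each at 1 FPKM or more in 21 of 21 libraries. Markers of basal, immune and endothelial cells were near 0, with the highest value 1.07 FPKM, for TP63. Of the fibroblast markers, COL1A1 was at 9.34 to 32.7 FPKM, while COL1A2 and DCN, which fibroblasts also make, reached at most 0.0617 FPKM. Between 14435925 and 28424805 fragments fell on genes in a library (median 18314738). The lowest fragment count of the 9 genes in any library was 75, for SRXN1.

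One library stood apart for these genes before any treatment was compared, control replicate 3. It was the highest of the 3 controls for 9 of 9 members and for 27 of 27 other NRF2 targets tested, against 38.6% of all genes tested. Over the 9 members the median log2 difference from the mean of the other controls was 1.31, over the 27 other targets 0.56, and over all genes tested -0.00. HMOX1 was 5.47 above the other controls on the log2 scale, the largest such difference of the 14686 genes. Heat shock genes in this library had a median difference of 0.10, genes of the integrated stress response 0.77 and metallothioneins 1.10. At 15246217 its fragments on genes were within the range of the other libraries, and what set it apart was not tested. Comparisons with control are also given without it, a choice of library made after these values were seen. Since it is the highest control for all 9 genes, leaving it out moves every member's difference from control upward by arithmetic, and the results without it show how much rests on it rather than adding support.

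**Figure D1:**
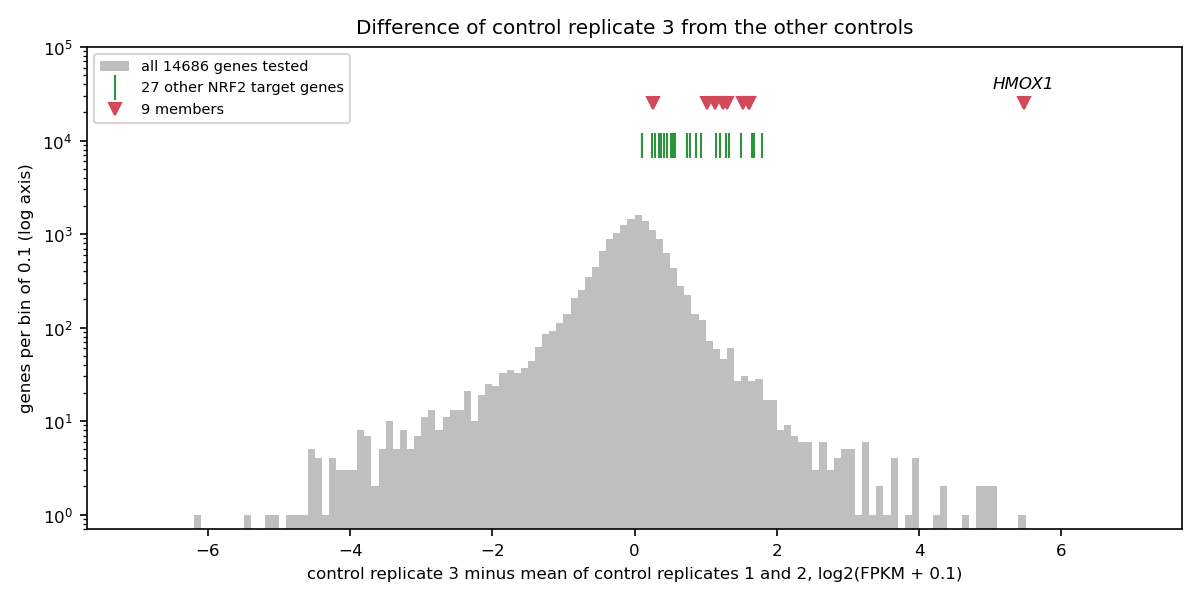
Histogram over the 14686 genes tested of log2(FPKM + 0.1) in control replicate 3 minus the mean of control replicates 1 and 2, with genes per bin on a log axis. Triangles mark the 9 members and ticks the 27 other NRF2 targets, all to the right of 0, with HMOX1 farthest at 5.47.

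Further libraries stood high within their group. GSK4716 replicate 3 was the highest of its group for 9 of 9 members (31.6% of all genes tested) and DES with calcium replicate 2 likewise for 9 of 9 (35.4%). Cadmium replicate 3 was the highest for 8 of 9 (40.9%) and calcium replicate 1 for 7 of 9 (33.6%). DES with cadmium replicate 1 had 2429 genes more than 2-fold below both others of its group, the most of any library. In that library the authors' library size was 0.693 of the fragments counted on genes, the lowest ratio of the 21, which bears on how its values are scaled.

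HMOX1 (ENSG00000100292, chr22:35380361-35394214, plus strand) encodes heme oxygenase 1, which breaks down heme. It was at 11.6, 5.20 and 349 FPKM in control replicates 1, 2 and 3, at 95.5, 65.5 and 32.9 with calcium, at 196, 816 and 2453 with cadmium and at 169, 49.7 and 1035 with GSK4716. The controls thus spanned 6.04 on the log2 scale, and control replicate 3 lay above all calcium libraries, above cadmium replicate 1 and above GSK4716 replicates 1 and 2. With DES, HMOX1 was at 115, 195 and 87.6 FPKM, with DES and calcium at 264, 348 and 94.5, and with DES and cadmium at 740.0, 318 and 537. All 9 libraries with DES lay above control replicates 1 and 2 and those with DES and cadmium above the ones with DES alone. By mean the order ran from cadmium, 1155 FPKM ± 1166 (SD, n = 3), through DES with cadmium, GSK4716, DES with calcium, DES and control to calcium, 64.7 FPKM ± 31.3 (SD, n = 3), and every pair of neighbours in it overlapped.

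SQSTM1 (ENSG00000161011, chr5:179806398-179838078, plus strand) encodes p62, an autophagy receptor that binds KEAP1. Its level was 50.3, 32.1 and 99.5 FPKM in the control libraries, 160.1, 128 and 86.5 with calcium, 83.5, 129 and 276 with cadmium and 122, 113 and 146 with GSK4716. All GSK4716 libraries were above all controls, while calcium replicate 3 and cadmium replicate 1 fell below control replicate 3. With DES the values were 76.3, 85.0 and 67.1 FPKM, with DES and calcium 94.1, 109 and 54.3, and with DES and cadmium 182, 212 and 84.2. Replicate 3 was the lowest in each of these 3 groups. The order by mean led from cadmium, 163 FPKM ± 100.7 (SD, n = 3), by way of DES with cadmium, GSK4716, calcium, DES with calcium and DES to control, 60.7 FPKM ± 34.9 (SD, n = 3), with neighbours overlapping throughout.

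OSGIN1 (ENSG00000140961, chr16:83948282-83966332, plus strand) encodes an inhibitor of growth induced by oxidative stress. In control it was at 7.15, 6.77 and 21.5 FPKM, with calcium at 24.7, 24.5 and 17.5, with cadmium at 27.4, 52.8 and 63.3 and with GSK4716 at 16.7, 18.3 and 27.3. All cadmium libraries exceeded all control and all calcium libraries, and control replicate 3 lay among the calcium and GSK4716 values. Libraries with DES read 6.67, 4.29 and 4.20 FPKM, those with DES and calcium 5.96, 8.99 and 3.47, and those with DES and cadmium 7.73, 10.2 and 3.72. No library with DES reached the lowest of the calcium, cadmium or GSK4716 libraries. From highest to lowest mean came cadmium, 47.9 FPKM ± 18.5 (SD, n = 3), calcium, GSK4716, control, DES with cadmium, DES with calcium and DES, 5.05 FPKM ± 1.4 (SD, n = 3), and only cadmium was separate from its neighbour.

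The next 3 genes supply glutathione. SLC7A11 (ENSG00000151012, chr4:138164097-138242349, minus strand) encodes the light chain of the cystine and glutamate exchanger, which brings in cystine. It was at 3.54, 2.26 and 8.82 FPKM in control, at 6.82, 12.9 and 16.9 with calcium, at 8.49, 24.2 and 47.7 with cadmium and at 15.2, 5.06 and 28.0 with GSK4716. Every calcium and cadmium library was above control replicates 1 and 2, yet calcium replicate 1 and cadmium replicate 1 were below control replicate 3. DES libraries were at 0.830, 3.14 and 1.83 FPKM, those with DES and calcium at 2.47, 7.10 and 1.74, and those with DES and cadmium at 1.31, 6.0 and 1.33. Of the 9 libraries with DES, 1 (DES with calcium replicate 2) was above the lowest calcium library and none reached the lowest cadmium library. In order of mean came cadmium, 26.8 FPKM ± 19.7 (SD, n = 3), GSK4716, calcium, control, DES with calcium, DES with cadmium and DES, 1.94 FPKM ± 1.16 (SD, n = 3), with overlap at each step.

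GCLC (ENSG00000001084, chr6:53497341-53616970, minus strand) encodes the catalytic subunit of glutamate-cysteine ligase, the enzyme that limits glutathione synthesis. Control libraries gave 4.55, 4.29 and 9.83 FPKM, calcium 8.19, 5.97 and 6.97, cadmium 7.50, 10.1 and 10.3 and GSK4716 9.40, 6.52 and 14. Control replicate 3 was above all calcium libraries and within the range of the cadmium and GSK4716 libraries. DES libraries gave 3.98, 4.70 and 3.77 FPKM, DES with calcium 5.80, 8.10 and 3.92 and DES with cadmium 3.46, 5.96 and 3.36. Each library with DES and cadmium was below each with cadmium alone. The mean was highest with GSK4716, 9.98 FPKM ± 3.80 (SD, n = 3), then came cadmium, calcium, control, DES with calcium, DES with cadmium and DES, 4.15 FPKM ± 0.487 (SD, n = 3), again with overlapping neighbours.

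GCLM (ENSG00000023909, chr1:93885205-93909456, minus strand), the modifier subunit introduced above with its promoter, was at 6.72, 7.07 and 20.1 FPKM in control, 10.9, 9.70 and 11.7 with calcium, 23.4, 34.3 and 63.8 with cadmium and 15.5, 9.61 and 30.9 with GSK4716. All cadmium libraries were above all control and all calcium libraries. In DES it was at 7.95, 8.73 and 7.09 FPKM, in DES with calcium at 8.43, 12.8 and 9.05 and in DES with cadmium at 4.75, 18.1 and 7.33. Among these 9 libraries DES with cadmium replicate 2 was the highest, and still below all cadmium libraries without DES. Mean levels descended from cadmium, 40.5 FPKM ± 20.9 (SD, n = 3), over GSK4716, control, calcium, DES with calcium and DES with cadmium to DES, 7.92 FPKM ± 0.817 (SD, n = 3), and neighbours overlapped.

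Of the thiol reductases, TXNRD1 (ENSG00000198431, chr12:104215779-104350305, plus strand), whose promoters are printed above, passes electrons from NADPH to thioredoxin. Its level was 30.2, 33.6 and 64.5 FPKM in control, 63.0, 59.8 and 57.0 with calcium, 71.2, 105 and 163 with cadmium and 49.9, 34.9 and 91.4 with GSK4716. Calcium values lay close together, all below control replicate 3, and all cadmium values were above all of these. With DES it was 34.5, 29.9 and 19.7 FPKM, with DES and calcium 35.8, 54.2 and 25.0 and with DES and cadmium 17.6, 32.2 and 20.1. No library with DES reached the lowest calcium or cadmium library. The order by mean was cadmium, 113 FPKM ± 46.4 (SD, n = 3), calcium, GSK4716, control, DES with calcium, DES and DES with cadmium, 23.3 FPKM ± 7.83 (SD, n = 3), and cadmium alone was separate from the next.

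SRXN1 (ENSG00000271303, chr20:646615-653370, minus strand) encodes sulfiredoxin, which restores overoxidised peroxiredoxins. Of the 9 genes it varied least among the controls, at 4.01, 5.11 and 5.43 FPKM, with calcium at 7.44, 7.23 and 3.79, cadmium at 8.19, 9.31 and 8.52 and GSK4716 at 5.30, 3.90 and 9.24. All cadmium libraries were above all controls, whereas calcium replicate 3 was below them. DES gave 4.34, 5.80 and 2.84 FPKM, DES with calcium 4.15, 6.03 and 1.80 and DES with cadmium 6.22, 4.65 and 2.65. The ranges of these 3 groups overlapped. Mean levels went from cadmium, 8.68 FPKM ± 0.574 (SD, n = 3), separate from the next, to calcium, GSK4716, control, DES with cadmium, DES and DES with calcium, 4.0 FPKM ± 2.12 (SD, n = 3).

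NQO1 (ENSG00000181019, chr16:69706996-69726951, minus strand) encodes the quinone reductase that gives the group much of its detoxifying activity, and had the highest mean of the 9 over the 21 libraries, 483 FPKM, though HMOX1 was higher in cadmium replicates 2 and 3, GSK4716 replicate 3 and DES with cadmium replicate 3. Control libraries were at 238, 194 and 509 FPKM, calcium at 452, 418 and 308, cadmium at 462, 364 and 557 and GSK4716 at 269, 313 and 437. Control replicate 3 was above all libraries of these groups but cadmium replicate 3. DES libraries were at 757, 512 and 248 FPKM, DES with calcium at 692, 1021 and 369 and DES with cadmium at 1052, 666 and 317. Unlike the glutathione genes, NQO1 had its highest values in libraries with DES, while replicate 3 was the lowest in each of those groups. By mean, DES with calcium, 694 FPKM ± 326 (SD, n = 3), led DES with cadmium, DES, cadmium, calcium, GSK4716 and control, 313 FPKM ± 170.5 (SD, n = 3), with all neighbours overlapping.

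**Figure D2:**
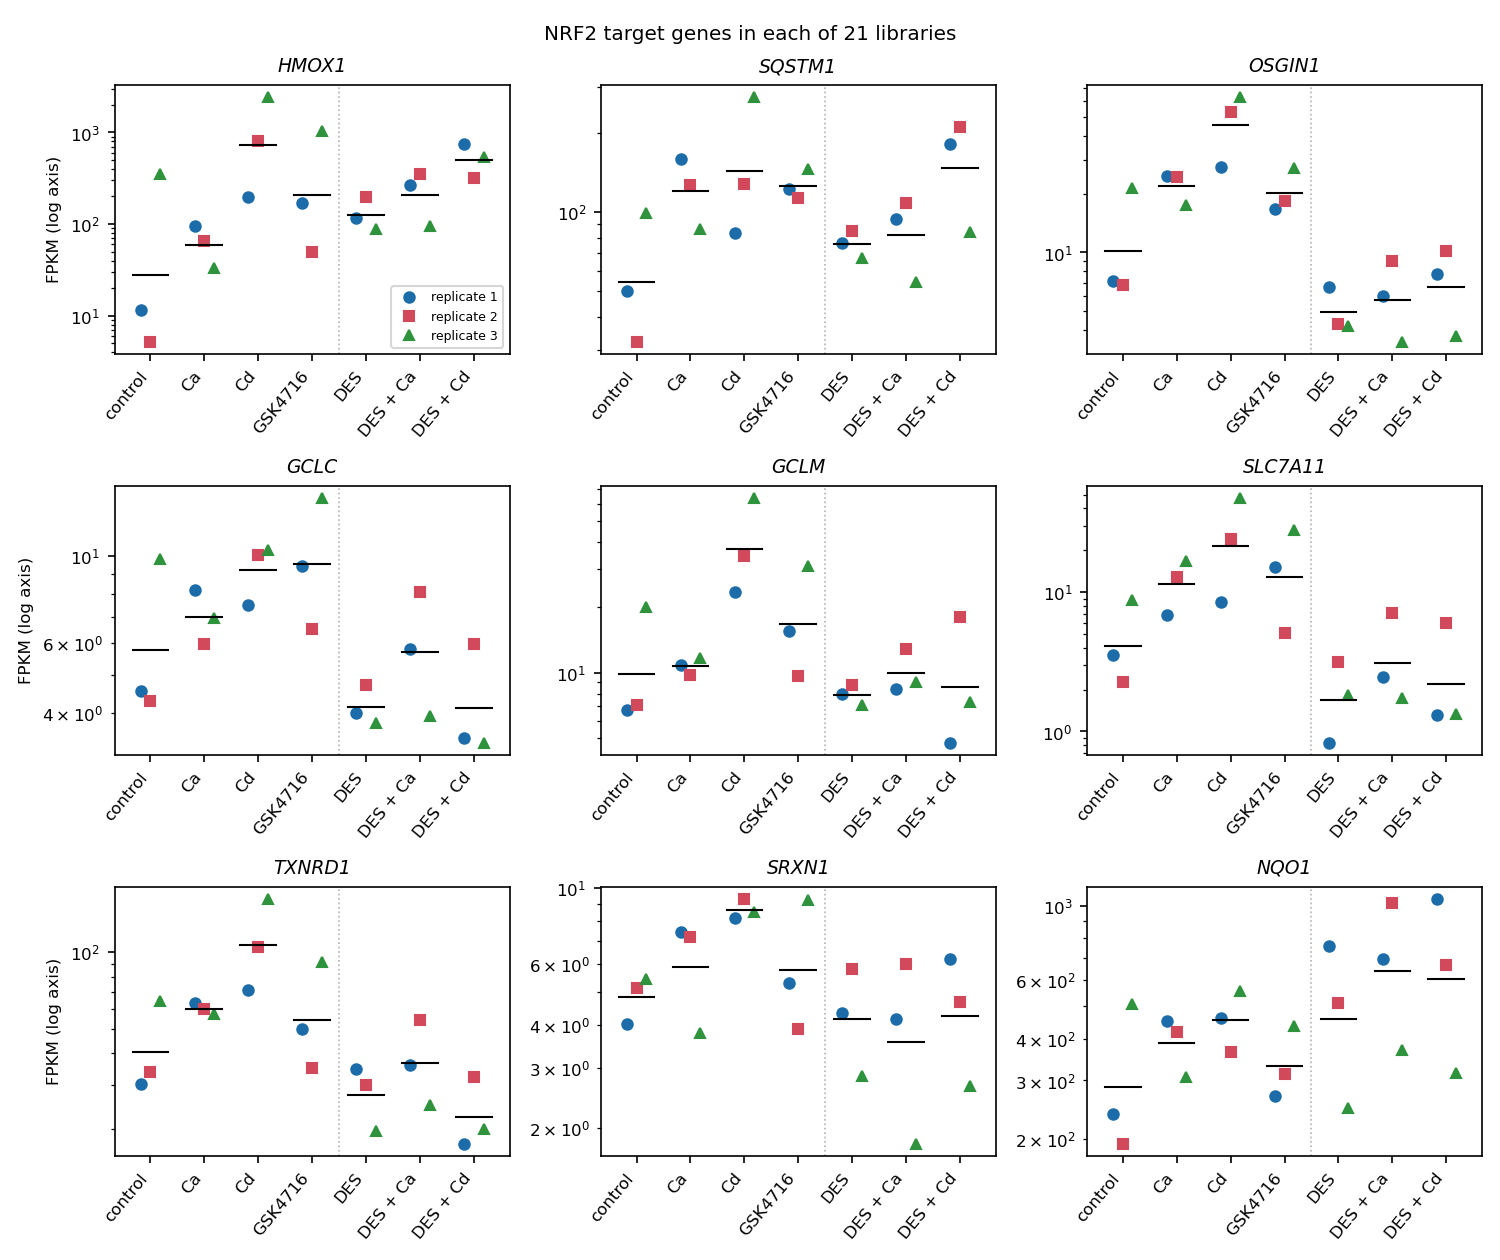
FPKM on a log axis of each of the 9 genes in each of the 21 libraries, by group, with symbols for replicates 1, 2 and 3 and a line at the geometric mean. Control replicate 3 is the highest control in each panel, and in OSGIN1 the groups with DES, right of the dotted line, lie below the calcium, cadmium and GSK4716 groups.

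Cadmium gave the highest mean level of 7 of the 9 genes, all but NQO1 and GCLC. Against control, every cadmium library was above every control library for GCLM, SRXN1, TXNRD1 and OSGIN1, 4 of 9 genes against 17.7% of all genes tested. On the log2(FPKM + 0.1) scale used throughout, the fold change of HMOX1 was 4.72 (SE 1.72, adjusted p = 0.158) by limma. For OSGIN1 it was 2.14 (SE 0.53, adjusted p = 0.0935), for SLC7A11 2.34 (SE 0.74, adjusted p = 0.128), for GCLM 1.90 (SE 0.54, adjusted p = 0.111) and for TXNRD1 1.41 (SE 0.40, adjusted p = 0.113) in the same limma fit. SQSTM1 was at 1.40, SRXN1 at 0.84, NQO1 at 0.67 and GCLC at 0.66, so that all 9 were above 0, with a median of 1.41 against 0.04 over all genes tested. These are bulk values, in which fewer cells of a type and less RNA per cell cannot be told apart. At an adjusted p under 0.05 limma called 0 of the 9 (0.150% of all genes tested), while 7 had an unadjusted p under 0.05 (25.9% of all) and limma-voom called 0 (3.28%).

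Without control replicate 3 the cadmium differences were, as they had to be, larger. HMOX1 was then at 6.54 (SE 1.11), OSGIN1 at 2.68, SLC7A11 at 2.88 and GCLM at 2.41, with a median of 1.84 over the 9. Limma again called 0 of 9 (0.0340% of all genes), and 9 of 9 had an unadjusted p under 0.05 (21.4%), a share not comparable with that of all genes, of which 38.6% were highest in that library. Without cadmium replicate 1, SLC7A11 at 3.00 (limma adjusted p = 0.0492) and SRXN1 at 0.88 (adjusted p = 0.0493) were called, 2 of 9 against 10.9% of all genes, and the genes called of all tested went from 22 to 1605. Metallothioneins, which bind cadmium, were set beside the members: limma called 4 of the 5 tested, with a median of 7.88, and MT2A was at 2002, 2288 and 4088 FPKM with cadmium against 62.0, 24.1 and 92.7 in control. MT2A kept its call in 1 of the 6 fits that leave out a library (adjusted p up to 0.169), lost in all but the one without cadmium replicate 1. MT1X and MT1F lost theirs without cadmium replicate 2 (0.0919 and 0.079), and MT1E kept its call in 6 of 6. Heat shock genes, with all libraries, had a median of 2.43 for cadmium against control. Limma called 0 of the 8, and 5 had an unadjusted p under 0.05 (25.9% of all genes). Of the 22 genes called, 19 were higher with cadmium, and 14 of 14 when libraries were scaled to their total of fragments.

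**Figure D3:**
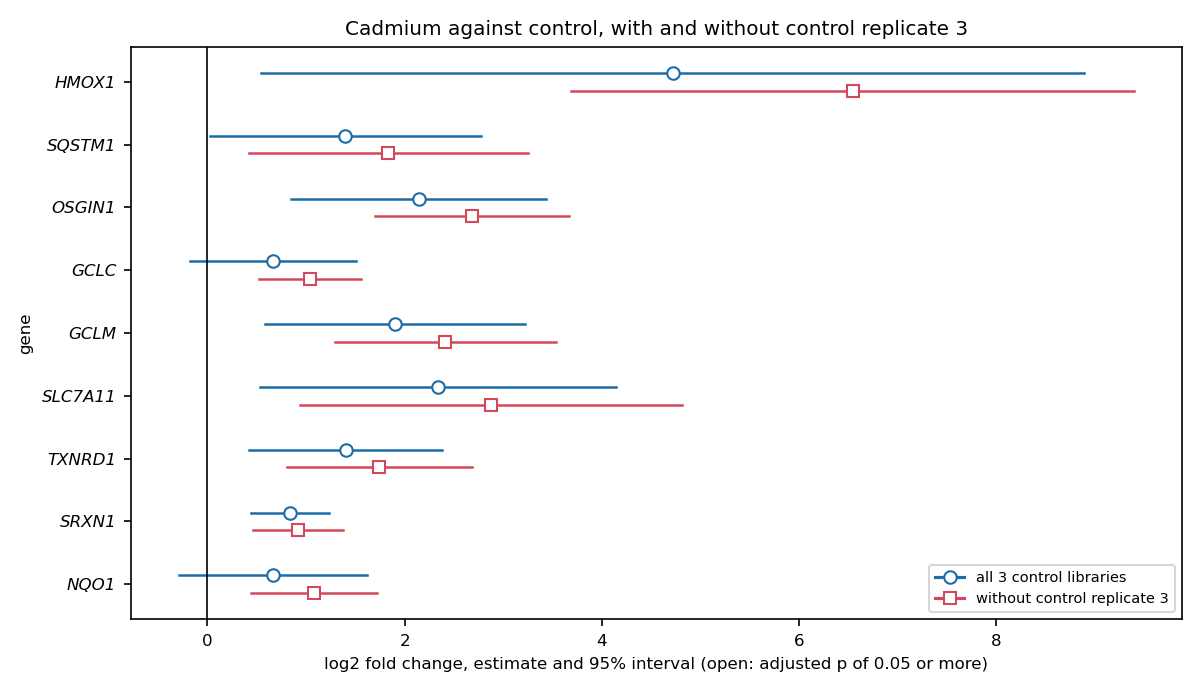
Log2 fold change of each of the 9 genes, cadmium against control, with its 95% interval from limma, for all 3 controls and without control replicate 3. Each estimate is above 0 and larger without that library, and no adjusted p is under 0.05.

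Calcium gave smaller differences from control. SLC7A11 was at 1.44 (SE 0.56, adjusted p = 0.193) in limma, SQSTM1 at 1.15 (SE 0.45, adjusted p = 0.19) and OSGIN1 at 1.10 (SE 0.46, adjusted p = 0.22). HMOX1, at 1.09 (SE 1.54, adjusted p = 0.732), had a positive log2 value beside a lower mean FPKM with calcium than in control, since control replicate 3 alone carries that mean. For TXNRD1 the value was 0.57, and NQO1, GCLM, GCLC and SRXN1 were between 0.12 and 0.44. No gene of the 9 had all calcium libraries above all controls (16.0% of all genes tested). Limma called 0 of 9 (7.12% of all genes), 2 had an unadjusted p under 0.05 (23.5%) and limma-voom called 0 (10.8%).

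In the calcium comparison 1 control library decided several values. Without control replicate 3, OSGIN1 rose by 1.64 (limma adjusted p = 0.0263) and TXNRD1 by 0.91 (adjusted p = 0.0285), which makes 2 of 9 called (5.01% of all genes) and 8 of 9 with an unadjusted p under 0.05 (21.7%). HMOX1 was then at 2.91 (adjusted p = 0.0584), whereas without control replicate 2 it was at -0.11 (adjusted p = 0.988). GCLM, at 0.12 with all libraries, was at -0.15 without control replicate 1 and at -0.12 without control replicate 2. The median of the 9 was 0.57 against -0.01 over all genes, and 0.45 against -0.13 when libraries were scaled to their total of fragments. That scaling also moved the share of higher genes among those called from 64.5% to 49.3%.

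Set against calcium, cadmium had all its libraries higher for HMOX1, GCLM, SRXN1, TXNRD1 and OSGIN1, 5 of 9 against 14% of all genes tested. Their log2 differences were 3.63 (SE 0.91, adjusted p = 0.0858) for HMOX1 and 1.78 (SE 0.36, adjusted p = 0.0577) for GCLM by limma. OSGIN1 was at 1.04, TXNRD1 at 0.83 and SRXN1 at 0.55. Of the 9, 0 were called by limma (2.44% of all genes), with 4 at an unadjusted p under 0.05 (22.7%), while limma-voom called HMOX1 and GCLM, 2 of 9 (4.20%). These 2 treatments also differ in dose and in medium, which cannot be told apart from the metal.

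Set against control, GSK4716 was above 0 for all 9 genes, although NQO1 was at -0.06 without control replicate 2 and SRXN1 at -0.08 without GSK4716 replicate 3. HMOX1 was at 2.89 (SE 1.83, adjusted p = 0.478) in limma and SLC7A11 at 1.62 (SE 0.75, adjusted p = 0.346). SQSTM1, with all GSK4716 libraries above all controls, was at 1.22 (SE 0.40, adjusted p = 0.238), 1 of 9 genes in that position against 10.7% of all genes tested. OSGIN1 was at 0.99, GCLM at 0.75, GCLC at 0.71 and TXNRD1 at 0.43. Limma called 0 of 9 (0% of all genes, that is 0 of 14686), 1 had an unadjusted p under 0.05 (16.4%) and limma-voom called 0 (0.538%). Of the 7 genes of the integrated stress response tested, limma called 0 and 4 had an unadjusted p under 0.05, with a median of 1.35.

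Both the control and the GSK4716 group hold a replicate 3 that was the highest for all 9 genes. Without control replicate 3, HMOX1 was at 4.71, SQSTM1 at 1.65 and OSGIN1 at 1.53, limma called 0 (0% of all genes) and 5 of 9 had an unadjusted p under 0.05 (21.1%). Without control replicate 2, HMOX1 was at 1.69. Without GSK4716 replicate 3 alone, TXNRD1 was at 0.05, GCLM at 0.31, GCLC at 0.43 and SLC7A11 at 1.06. Leaving out replicate 3 of both groups, an alternative chosen after seeing the data, gave HMOX1 at 3.55 (SE 0.78), SQSTM1 at 1.55 (SE 0.26) and OSGIN1 at 1.32 (SE 0.10). TXNRD1 was then at 0.39 and SRXN1 at 0.01. By limma 0 of 9 were called and 0 of all genes there too, with 5 of 9 at an unadjusted p under 0.05 (16.4% of all).

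With DES alone, the log2 difference from control was above 0 for HMOX1, NQO1 and SQSTM1 and below 0 for the other 6. HMOX1 was at 2.17 (SE 1.42, adjusted p = 0.276) by limma, SLC7A11 at -1.24 (SE 0.60, adjusted p = 0.158) and OSGIN1 at -1.02 (SE 0.46, adjusted p = 0.13). NQO1 was at 0.68, SQSTM1 at 0.48, TXNRD1 at -0.56, GCLC at -0.47, GCLM at -0.32 and SRXN1 at -0.21. Limma called 0 of 9, in a comparison where it called 29.6% of all genes tested. At an unadjusted p under 0.05 there were 0 of 9 (43.2% of all), and limma-voom called 0 (32.5%).

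HMOX1 was called in this comparison once control replicate 3 was left out: it then rose by 4.0 (SE 0.46, limma adjusted p = 0.00682), 1 of 9 against 19.9% of all genes, and 2 of 9 had an unadjusted p under 0.05 (38.1%). OSGIN1 was then at -0.49, SLC7A11 at -0.70 and GCLM, with its sign changed, at 0.19. Without control replicate 2, HMOX1 was at 0.98 in place of 2.17. SRXN1 changed sign without DES replicate 3, to 0.06. Scaled to total fragments, the median over all genes moved from 0.05 to -0.12 and that of the 9 from -0.32 to -0.49, and the share of higher genes among those called fell from 56.4% to 42.3%. Of the lists set beside the members, limma called 8 of 8 heat shock genes higher with DES (median 4.14), 4 of 5 metallothioneins (3.05) and 5 of 7 genes of the integrated stress response (1.89), with or without control replicate 3. It called 29.6% of all genes there. SESN2 and CHAC1, of the integrated stress response, kept the call in 2 of 6 fits that leave out a library. They lost it without control replicate 1 or 2 or DES replicate 2 or 3. The other calls of these lists were kept in 6 of 6. With calcium limma called 6 of 8 heat shock genes higher (median 1.44), where it called 7.12% of all genes, and 3 without control replicate 3. Each of these 6 lost its call without control replicate 1, and likewise without control replicate 2. The part of these lists in the values of the 9 genes was not tested.

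In cells given calcium, DES was set against no DES. OSGIN1 fell by 1.92 on the log2 scale (SE 0.35, limma adjusted p = 0.00842), with all libraries with DES below all without, and was called in 6 of the 6 fits that leave out a library. SLC7A11 fell by 1.83 (SE 0.56, adjusted p = 0.045), though DES with calcium replicate 2 overlapped the calcium libraries. TXNRD1, also without overlap, was at -0.71 (SE 0.27, adjusted p = 0.0853) in limma, and HMOX1 was at 1.80 (SE 0.57, adjusted p = 0.0503), with DES with calcium replicate 3 just below calcium replicate 1. NQO1 was at 0.72, SQSTM1 at -0.55, SRXN1 at -0.70, GCLC at -0.29 and GCLM at -0.11.

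Read against the background, 2 of 9 called by limma is below the share of all genes, 35.1%. At an unadjusted p under 0.05 there were 4 of 9 (46.8% of all), limma-voom called 4 of 9 (39.2%), and 2 of 9 had all libraries with DES below all without (25.1%). The call of SLC7A11 was lost without calcium replicate 1, 2 or 3, DES with calcium replicate 1 or DES with calcium replicate 3, with adjusted p up to 0.14. That call was also lost with no filter on low values and with all 7 groups in one fit. Without DES with calcium replicate 2, TXNRD1 fell by 1.00 (adjusted p = 0.0232) and 3 of 9 were called (24.3% of all genes). Without DES with calcium replicate 3, HMOX1 rose by 2.36 (adjusted p = 0.0217) and NQO1 by 1.12 (adjusted p = 0.041), again with 3 of 9 called (29.0% of all genes). GCLM was at 0.01 without DES with calcium replicate 1. Scaled to total fragments, the median of all genes moved from -0.01 to -0.20 and that of the 9 from -0.55 to -0.75, and the share of higher genes among those called from 52.9% to 39.8%.

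In cells given cadmium the same step was examined. OSGIN1 fell by 2.74 (SE 0.47, limma adjusted p = 0.0313) and TXNRD1 by 2.24 (SE 0.38, adjusted p = 0.0313). SLC7A11 was at -3.22 (SE 0.80, adjusted p = 0.0524) in limma, GCLM at -2.10 (SE 0.57, adjusted p = 0.0626), GCLC at -1.14 (SE 0.31, adjusted p = 0.0609) and SRXN1 at -1.01 (SE 0.34, adjusted p = 0.101). For these 6 genes, 6 of 9 against 21.4% of all genes tested, every library with DES and cadmium was below every library with cadmium alone. HMOX1 at -0.54, SQSTM1 at 0.04 and NQO1 at 0.41 overlapped between the groups. Limma called 2 of 9 (9.89% of all genes), 6 had an unadjusted p under 0.05 (32.6%), and limma-voom called 5, with GCLM, GCLC and SLC7A11 added (12.3%).

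These cadmium calls rest on few libraries and on the filter. With no filter on low values, limma called 0 of 9 and 22 of all genes. Without cadmium replicate 1, 2 or 3 or DES with cadmium replicate 3, limma called 0 of 9 and 0 of all genes, with adjusted p of OSGIN1 up to 0.166 and of TXNRD1 up to 0.163, while their log2 differences kept between -3.10 and -2.33 and between -2.54 and -1.94 over all 6 such fits. Without DES with cadmium replicate 1 both were called, and without DES with cadmium replicate 2 limma called 4 of 9 (4.6% of all genes), GCLM at -2.63 and SLC7A11 at -3.92 being the others. HMOX1 changed sign without cadmium replicate 3, to 0.33, and SQSTM1, near 0, without cadmium replicate 1 (-0.35) or 2 (-0.04) or DES with cadmium replicate 1 (-0.11) or 2 (-0.22). Scaled to total fragments, the median of all genes moved from -0.08 to -0.39 and that of the 9 from -1.14 to -1.47, SQSTM1 changed sign to -0.29, and the share of higher genes among those called moved from 48.1% to 25.6%. Under that scaling OSGIN1 fell by 3.08, TXNRD1 by 2.58, SLC7A11 by 3.54 and SRXN1 by 1.34, 4 of 9 called (9.55% of all genes).

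**Figure D4:**
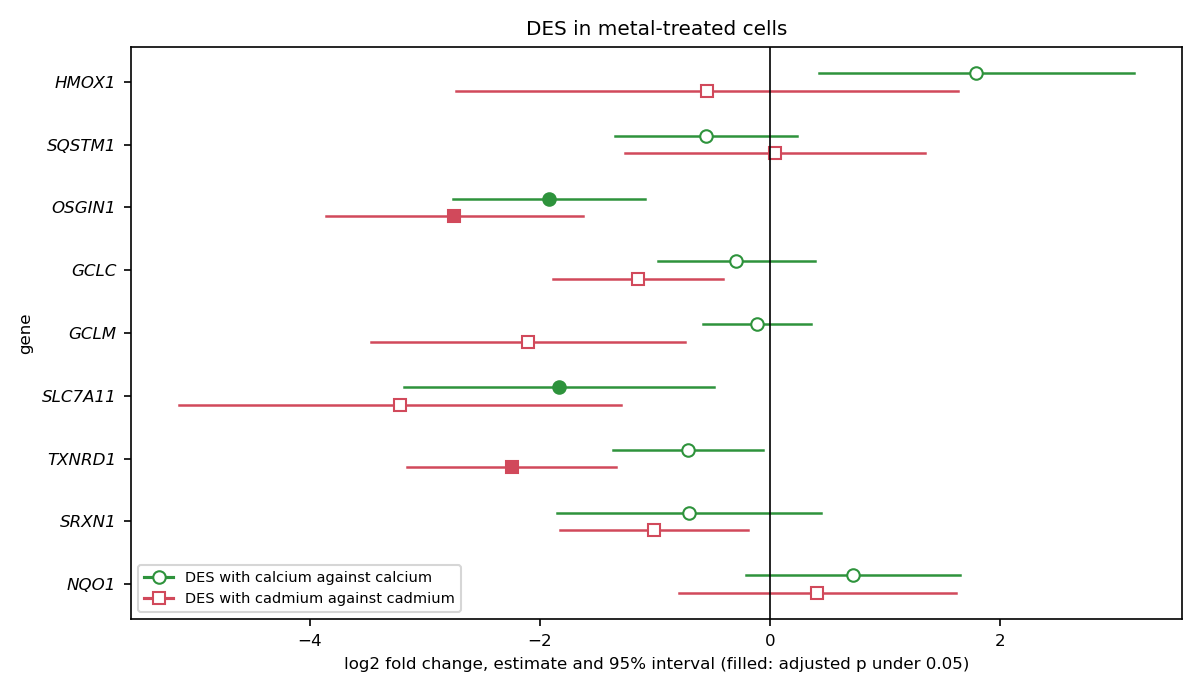
Log2 fold change of each of the 9 genes for DES with calcium against calcium and for DES with cadmium against cadmium, with 95% intervals from limma and filled symbols where the adjusted p is under 0.05. OSGIN1 and SLC7A11 are filled for calcium and OSGIN1 and TXNRD1 for cadmium, and HMOX1 and NQO1 are above 0 for calcium.

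Within cells given DES, the log2 differences with a metal were small for most of the 9. With calcium, SLC7A11 was at 0.85 (SE 0.66, adjusted p = 0.594) and HMOX1 at 0.71 (SE 0.54, adjusted p = 0.586) by limma, and the other 7 were between -0.21 and 0.48. The lowest, SRXN1, was at 0.02 without DES replicate 2 and at 0.26 without DES with calcium replicate 3. Calls by limma numbered 0 of 9 (0.136% of all genes), 0 had an unadjusted p under 0.05 (13.2%) and limma-voom called 0 (0% of all genes). With cadmium, HMOX1 was at 2.00 (SE 0.44, adjusted p = 0.181) by limma. SQSTM1 was at 0.97 (SE 0.38, adjusted p = 0.449) in the same limma fit, and the other 7 were between -0.28 and 0.42. Of these, NQO1, GCLM, GCLC, SRXN1 and SLC7A11 changed sign with 1 library or another left out, as the closing part lists, in fits that take no account of the replicate number. Limma called 0 of 9 (0.266% of all genes), 2 had an unadjusted p under 0.05 (10.4%) and limma-voom called 0 (0% of all genes). A p that misses the threshold does not show that a gene did not differ, and the interval for HMOX1 with DES and calcium ran from -0.60 to 2.03.

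Scaling by total fragments moved the median of all genes from 0.00 to -0.13 in the calcium and from -0.04 to -0.24 in the cadmium comparison within DES. The median of the 9 went from 0.42 to 0.28 and from 0.36 to 0.16. Fitted with the replicate number as a block, since equal numbers deviated together in both, the 20 and 39 genes called of all tested became 0 and 0, and 0 of 9 members were called as before. Between libraries of equal number, HMOX1, GCLM, GCLC and TXNRD1 were higher with calcium in every pair. HMOX1, NQO1 and SQSTM1 were higher with cadmium in every pair. The other members went both ways between pairs. The share of all genes tested that were higher in every pair was not computed, so these directions are a description only.

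Whether a metal acted differently with DES was tested as an interaction, the effect of the metal with DES minus its effect without. For cadmium all 9 values were below 0, although NQO1 was at 0.02 without control replicate 2, 0.10 without DES replicate 1 and 0.20 without DES with cadmium replicate 3, and SQSTM1 at 0.04 without cadmium replicate 3. TXNRD1 was at -1.68 (SE 0.54, adjusted p = 0.134) in limma, GCLM at -1.78 (SE 0.76, adjusted p = 0.242) and OSGIN1 at -1.72 (SE 0.71, adjusted p = 0.226). SLC7A11 was at -1.98 and HMOX1 at -2.72, with wider errors. In limma 0 of the 9 were called (1.18% of all genes), 3 had an unadjusted p under 0.05 (18.5%) and limma-voom called 0 (0.838%). Without control replicate 3 the values of TXNRD1, GCLM and OSGIN1 were -2.02, -2.30 and -2.26 and that of HMOX1 -4.54, with 0 of 9 called (0.300% of all genes) and 6 of 9 at an unadjusted p under 0.05 (15.0%). The median of the 9 was -1.68 against -0.09 over all genes, and -1.84 against -0.23 when scaled to total fragments.

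For calcium the interaction was smaller in size for the members other than SQSTM1, which was at -0.44 for cadmium. No test compared the calcium and cadmium interactions. SQSTM1 was at -1.03 (SE 0.55, adjusted p = 0.32) and OSGIN1 at -0.90 (SE 0.62, adjusted p = 0.459) by limma, and the other 7 were between -0.59 and 0.21. HMOX1, at -0.38, was at 0.25 without control replicate 1, 0.82 without control replicate 2 and 0.18 without DES with calcium replicate 3. Limma called 0 of 9 (3.63% of all genes), 0 had an unadjusted p under 0.05 (19.9%) and limma-voom called 0 (4.42%). Without control replicate 3, SQSTM1 was at -1.47, OSGIN1 at -1.44, HMOX1 at -2.20 and GCLM at -0.30 in place of 0.21, with 0 called (3.94% of all genes) and 3 of 9 at an unadjusted p under 0.05 (19.3%). Both interactions share the control and DES libraries, as the comparisons with control share theirs, so their values are side by side and not independent.

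The regulators of the pathway were examined as a list of 10. NFE2L2, the gene of NRF2 itself, was at 13.8, 15.2 and 15.0 FPKM in control, 9.67, 12.9 and 12.8 with cadmium and 6.78, 14.7 and 10.1 with DES, with the cadmium values below all controls and the DES values overlapping them, and it was not called in any of the 11 comparisons. KEAP1 was at 22.9, 22.3 and 37.3 FPKM in control and 19.2, 13.6 and 14.8 with calcium, all below all controls, at -0.76 (SE 0.24, adjusted p = 0.126) by limma. Of the small MAF partners, MAFF, at 0.529, 0.894 and 0.722 FPKM in control, was at 7.67, 25.8 and 10.0 with calcium and 11.6, 12.8 and 9.63 with DES. It rose by 3.98 with calcium (adjusted p = 0.0126, lost without control replicate 1 or 2, at up to 0.0672) and by 3.83 with DES (adjusted p = 0.000289, called in 6 of 6 fits that leave out a library) by limma. Over the 10 regulators limma called 3 higher with calcium, 3 higher and 1 lower with DES, 2 higher and 2 lower for DES with calcium against calcium, and 1 lower, MAFG, for DES with cadmium against cadmium, where it called 7.12%, 29.6%, 35.1% and 9.89% of all genes. It called 3 higher with calcium and 3 higher and 0 lower with DES when control replicate 3 was left out. Beside MAFF, the calls kept in 6 fits that leave out a library were, with calcium, MAFK in 3 and MAFG in 1, and with DES, MAFK in 3, NFE2L1 in 2 and CUL3 in 1. For DES with calcium against calcium they were RBX1 in 6, NFE2L3 in 5, and MAFK and CUL3 in 1 each, and for DES with cadmium against cadmium MAFG in 0, at adjusted p from 0.0764 to 0.193. With cadmium or GSK4716 against control, with cadmium against calcium and with a metal within DES it called 0 of 10, with 4, 4, 2, 2 and 1 at an unadjusted p under 0.05. In the same order, 25.9%, 16.4%, 22.7%, 13.2% and 10.4% of all genes had such a p.

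Other NRF2 targets were listed by pathway and 27 of 37 were tested. With cadmium against control limma called 0 of 27, with 10 at an unadjusted p under 0.05 (25.9% of all genes) and a median of 0.39, and ALDH3A1, an aldehyde dehydrogenase, at 3.36 (SE 0.63, adjusted p = 0.0653) and TRIM16L at 1.41 were the largest. Without control replicate 3 there were 16 at an unadjusted p under 0.05 (21.4% of all) and a median of 0.64, and limma again called 0. With calcium, 2 were called higher and 0 lower (median 0.20), where limma called 7.12% of all genes: UGDH, an enzyme of glucuronate synthesis, at 1.76 (SE 0.16, adjusted p = 0.00951), lost without control replicate 1 or 2 at an adjusted p up to 0.0564, and BLVRA, biliverdin reductase, at 0.46 (SE 0.10, adjusted p = 0.0461), lost without any 1 of the 6 libraries, at up to 0.185. Calcium gave 3 called without control replicate 3 (median 0.46). GSK4716 gave 0 called, 2 at an unadjusted p under 0.05 (16.4% of all) and a median of 0.34, and without control replicate 3 again 0, 11 (21.1% of all) and 0.64. DES gave 2 higher, PRDX6 and UGDH, and 1 lower, ABCC1 (median 0.26), where limma called 29.6% of all genes, and 4 higher and 0 lower without control replicate 3 (median 0.53). Of these calls PRDX6 was kept in 5 of 6 fits that leave out a library, UGDH in 1 and ABCC1 in 0, at adjusted p up to 0.0558, 0.168 and 0.118. A metal within DES gave 0 called, with medians of 0.28 for calcium and 0.49 for cadmium and 1 and 0 at an unadjusted p under 0.05 (13.2% and 10.4% of all). Cadmium against calcium gave ALDH3A1 at 3.17 and FECH at 1.58 called higher and BLVRA at -1.02 called lower (median 0.21), where limma called 2.44% of all genes. Each of these was lost without any 1 of the 6 libraries, at adjusted p up to 0.166, 0.136 and 0.152.

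In cells given a metal, DES was also set against no DES for these other targets. For DES with calcium against calcium limma called 8 of 27 higher and 5 lower (median 0.36), where it called 35.1% of all genes. Of these 13, PRDX6, ABCC1 and FTL kept the call in 6 of 6 fits that leave out a library, PIR in 4, ABCC3, GPX4, MGST1, TKT, CBR3 and TRIM16 in 2, TRIM16L and GSS in 1 and PRDX1 in 0. The values were, for PRDX6, a peroxiredoxin, up by 1.31 (adjusted p = 0.00206), and for ABCC1, an exporter of glutathione conjugates, down at -1.52 (adjusted p = 0.00513). For DES with cadmium against cadmium it called 3 higher and 1 lower (median 0.29), where it called 9.89% of all genes. GPX4 and FECH lost the call without any 1 of the 6 libraries, at adjusted p up to 0.182 and 0.175, and GSS in 5 of the 6 fits, at up to 0.178. PRDX6 rose by 1.69 there (adjusted p = 0.0376), a call kept in 1 of 6 fits that leave out a library, the one without DES with cadmium replicate 1, and lost in the others at up to 0.173. TXNRD2, the mitochondrial paralog of TXNRD1, was at 14.6, 20.4 and 10.6 FPKM with DES and cadmium and 3.51, 2.51 and 5.46 with cadmium alone, opposite to TXNRD1. It rose by 1.98 (limma adjusted p = 0.0351), a call lost without any 1 of the 6 libraries, at adjusted p from 0.0557 to 0.168. HMOX2 and NQO2, paralogs of HMOX1 and NQO1, were not called in any of the 11 comparisons.

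**Figure D5:**
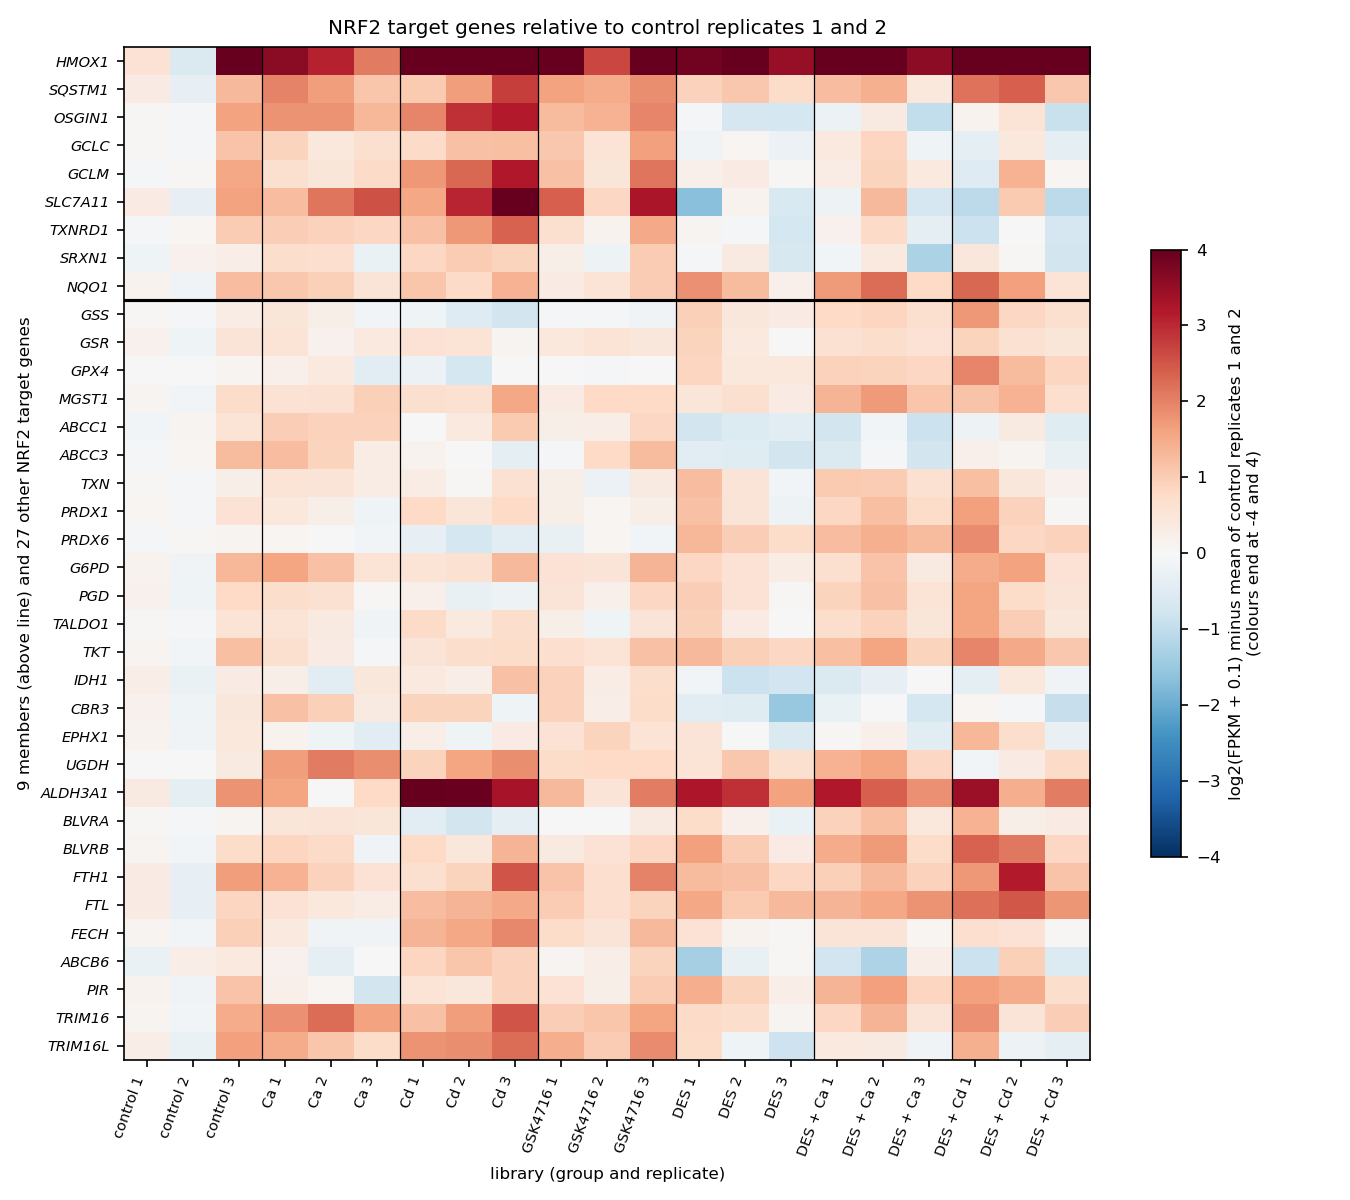
Log2(FPKM + 0.1) of the 9 members and 27 other NRF2 targets in each of the 21 libraries, minus the mean of control replicates 1 and 2, with colours ending at -4 and 4. Control replicate 3 is above that mean in all 36 genes, and in the libraries with DES HMOX1 and NQO1 are above it in all 9 while OSGIN1, SLC7A11 and TXNRD1 are mostly pale or blue.

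Across libraries the 9 genes varied together more closely without DES than with it. Over the 12 libraries without DES, all 36 pairs of members had a positive Pearson r of their log2 values, with a median of 0.798, from 0.558 for SRXN1 with SQSTM1 to 0.950 for HMOX1 with GCLM. Over the 9 libraries with DES the median was 0.50, and HMOX1 with GCLM had the lowest value, -0.103, while GCLC with TXNRD1 had the highest, 0.895. The median r of members with all genes tested was 0.0190 and -0.0175 in these sets. Within groups, as deviations from the group means over 21 libraries, the median was 0.706 (from 0.302 to 0.894), so libraries of the same treatment also differed along the group. The points share treatments, libraries and depth, and these values describe them only.

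Among genes with a mean of at least 1 FPKM, those most like each member over the 21 libraries, by Pearson r of log2 values, were members for 3 of the 9. TXNRD1 was closest to OSGIN1 (0.906), GCLM to TXNRD1 (0.887) and GCLC to SLC7A11 (0.901). NQO1 was closest to other listed targets, BLVRB (0.918), PRDX1 (0.913) and TALDO1 (0.888). HMOX1 was nearest to RNF114 (0.871), SQSTM1 to PYGB (0.921), SRXN1 to AXIN1 (0.866) and OSGIN1 to AC006547.1 (0.934).

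Whether the libraries kept the strand is described in more than 1 way, so members that overlap other genes are less certain. TXNRD1 overlaps 3 genes, among them RPL18AP3, a ribosomal protein pseudogene on the same strand with a mean of 157 FPKM, and SQSTM1 overlaps MGAT4B (mean 32.1 FPKM) and MRNIP on the opposite strand. For SLC7A11, GCLC, SRXN1, OSGIN1 and NQO1 the overlapping genes had means of at most 0.699 FPKM. HMOX1 and GCLM overlap no other gene in the annotation used.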

How the data were processed

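RNA-seq values of 21 libraries were used as the FPKM values deposited by the authors, who per the submitters' notes aligned reads with HISAT2 2.0.5 to GRCh38.p14 and counted fragments per gene with featureCounts 1.5.0-p3. The authors name DESeq2 and edgeR for differential expression, which were not run here. The strand is described in more than 1 way (directional with dUTP or not directional), so genes that overlap are uncertain.

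Genes with a mean of at least 0.5 FPKM over the 21 libraries were tested, 14686 of 58735, on log2(FPKM + 0.1) in limma 3.58.1 (R 4.3.3; lmFit and eBayes with trend). Each of 11 comparisons was fitted on its own groups, p was adjusted over all genes tested by Benjamini and Hochberg, and a gene with an adjusted p under 0.05 is called. Fragments recovered from FPKM and gene length came within 0.000159 of whole numbers and were used for limma-voom with the authors' library sizes. Tables and figures were made in Python 3.11.15 with numpy 2.4.6, pandas 2.3.3 and matplotlib 3.10.9. Fragments on genes ran from 14435925 to 28424805 per library, and no more than 5.27% of tested genes had equal fragments in any pair of libraries.

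Alternatives were a pseudocount of 1, no filter (which leaves out genes at 0 in all libraries compared), median-ratio scaling, scaling to total fragments, all 7 groups in one fit, a replicate block, limma-voom, and each library left out. Printing the results without control replicate 3 throughout was chosen after its values were seen. For GSK4716 the alternative without control replicate 3 and GSK4716 replicate 3 was chosen after seeing the data. Pairing by replicate number was checked by the correlation of deviations from group means. It was over 0.1 in every pair for DES with calcium against DES (0.132, 0.103 and 0.280) and DES with cadmium against DES (0.472, 0.121 and 0.313) only, where the block gave 0 genes called in place of 20 and 39.

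Genes are named if they are members or belong to a list of NRF2 regulators, other NRF2 targets, paralogs, heat shock genes, metallothioneins, genes of the integrated stress response or cell markers, or if they are nearest to a member in correlation or overlap a member. The members and lists were chosen with earlier results of these data known. Steps were tested on simulated fragments, with the same setting of spread for all genes and no library standing apart. That test does not cover the libraries that stood apart here.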

Additional observations from a re-analysis of the deposited data

Results flagged for a closer look

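No member had an interaction that limma called, but 9 genes of the lists set beside them did, HSPA6 for both metals, meaning that the effect of a metal differed with DES by a test of the difference itself. The lists with such calls held 10 regulators, 8 heat shock genes, 5 metallothioneins and 7 genes of the integrated stress response that were tested. Of all genes, limma called 3.63% for the calcium and 1.18% for the cadmium interaction. For calcium the log2 difference of effects was -2.48 for MAFF, -1.86 for MAFK, -2.06 for HSPA1A, -2.45 for HSPA1B, -4.94 for HSPA6, -3.17 for HSPB1 and -5.48 for ATF3. For cadmium it was -8.09 for HSPA6, -7.08 for MT1E and 2.41 for ATF5. In control the mean was 0.0392 FPKM for MT1E, below the pseudocount of 0.1, and 0.212 for HSPA6. The size of the values of these genes therefore depends on the pseudocount. MAFF and MAFK, partners of NRF2, kept the call in 5 of the 12 fits that leave out a library. HSPA6 kept it in 12 of 12 for calcium and 8 of 12 for cadmium, HSPB1 and ATF3 in 12 of 12, HSPA1B in 11 and HSPA1A in 6, and for cadmium MT1E in 6 of 12 and ATF5 in 5.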

How the results depend on the processing

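Over 123 single log2 values of genes, which hold all 9 members in all 11 comparisons, and 1776 alternatives to them, 1565 gave the same result, 35 a stronger one, 51 the opposite direction and the others a weaker one. The cause was not tested in any case.

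Members called went from 0 to 4 for cadmium against control with all 7 groups in one fit, which called 6.99% of all genes in place of 0.150%. For DES with calcium against calcium they went from 2 to 1 with no filter or all 7 groups in one fit (37.1% of all genes in that fit), to 3 with a pseudocount of 1 (35.9%) or scaling to total fragments (36.1%), and to 4 with limma-voom (39.2%). For DES with cadmium against cadmium they went from 2 to 0 with no filter, 3 with a pseudocount of 1 (12.2% of all genes), 4 with scaling to total fragments (9.55%) and 5 with all 7 groups in one fit (37.2%) or limma-voom (12.3%). For cadmium against calcium they went from 0 to 1 with scaling to total fragments (1.93%) or all 7 groups in one fit (10.6%), and to 2 with limma-voom (4.20%).

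With a replicate block, 4 members were called for DES with calcium against calcium (35.1% of all genes). For DES with cadmium against cadmium 0 were called (0 of all genes). Whether equal replicate numbers were paired there is not known. Their deviations from group means correlated at 0.102, 0.0582 and 0.159 in the calcium comparison. In the cadmium comparison the values were 0.266, -0.158 and -0.155. The block changed the number of members called in no other comparison.

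Leaving out each library in turn, the members called ranged from 0 to 2 for calcium and for cadmium against control, 0 to 1 for DES against control, 1 to 3 for DES with calcium against calcium and 0 to 4 for DES with cadmium against cadmium. Where a left-out library left a group with 2, its spread is pooled with that of the other group.

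With each library left out, 25 values of members took both signs, given as lowest to highest. Calcium against control had HMOX1 from -0.11 to 2.91 and GCLM from -0.15 to 0.63. GSK4716 against control had NQO1 from -0.0642 to 0.63 and SRXN1 from -0.0785 to 0.53. DES against control had GCLM from -0.59 to 0.19 and SRXN1 from -0.44 to 0.06. DES with calcium against DES had SRXN1 from -0.58 to 0.26, SQSTM1 from -0.0839 to 0.42 and OSGIN1 from -0.12 to 0.56. DES with cadmium against DES had NQO1 from -0.0405 to 0.87, GCLM from -0.41 to 0.54, GCLC from -0.27 to 0.13, SRXN1 from -0.23 to 0.36 and SLC7A11 from -0.34 to 0.79. DES with calcium against calcium had GCLM from -0.29 to 0.0068. DES with cadmium against cadmium had HMOX1 from -1.49 to 0.33 and SQSTM1 from -0.35 to 0.51. Cadmium against calcium had SQSTM1 from -0.22 to 0.64. The calcium interaction had HMOX1 from -2.20 to 0.82, NQO1 from -0.40 to 0.44, GCLM from -0.30 to 0.48, GCLC from -0.20 to 0.45 and TXNRD1 from -0.49 to 0.12. The cadmium interaction had NQO1 from -0.71 to 0.20 and SQSTM1 from -0.87 to 0.0353. Scaling to total fragments changed the sign of SQSTM1 for DES with cadmium against cadmium (-0.29) and for DES with calcium against DES (-0.0191), and for DES with cadmium against DES that of GCLM (-0.10) and SRXN1 (-0.18). Median-ratio scaling changed that of GCLC there (0.0026).

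Genes called of all tested depended on single libraries. With each library left out, the 1046 for calcium against control ranged from 7 to 758, the 22 for cadmium from 1 to 1605, the 4340 for DES from 1930 to 5078, the 1453 for DES with cadmium against cadmium from 0 to 1052 and the 358 for cadmium against calcium from 4 to 37. With no filter they were 8 for cadmium against control, 22 for DES with cadmium against cadmium and 40 for cadmium against calcium, and a fit of all groups gave 1026, 5459 and 1563.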
